A study of Mus musculus with 15 samples.

Results

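The making of ribosomes was followed through 54 genes out of the 22063 rows of a table of reads counted per gene in mouse fibroblasts. They were chosen by name, with earlier results of these data known. The genes encode 5 proteins of RNA polymerase I and its cofactors, 3 proteins of the box C/D and 4 of the box H/ACA small nucleolar ribonucleoproteins, 6 other nucleolar proteins, and 18 factors each for the assembly of the small and the large ribosomal subunit. Primary embryonic fibroblasts of C57Bl/6 mice, bought commercially and used at passage 2, were electroporated with a vector expressing a V5-tagged mouse homeobox gene from a CMV promoter together with a green fluorescent protein. The insert was Crxos, Oboxa1, Oboxa4 or Oboxa7, and the empty vector served as the control. Fluorescent cells were sorted after 48 h and their polyadenylated RNA was sequenced, with 3 libraries for each of the 5 conditions and 15 in all. The study's methods say that experiments were matched by date, but the sources used here give no date for any library and do not say whether replicate libraries were grown as separate cultures, so p-values reflect only how far these libraries scatter, which may be technical. The homeobox genes are normally active in the early embryo and not in fibroblasts, and the strong viral promoter sets their level here. The study's methods describe the levels reached as comparable to those in the embryo.

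A ribosome begins in the nucleolus, where RNA polymerase I copies the ribosomal DNA into a long precursor RNA. Small nucleolar ribonucleoproteins modify its nucleotides, with fibrillarin (Fbl) as the methyltransferase of the box C/D particles and dyskerin (Dkc1) as the pseudouridine synthase of the box H/ACA particles. The processome cuts out the 18S RNA of the small subunit, and a separate series of factors folds and trims the 28S and 5.8S RNAs of the large subunit before export to the cytoplasm. Growing cells make these factors in quantity, and in many cell types Myc, a transcription factor that binds the hexamer CACGTG (the E-box), is known to activate their genes.

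All 54 factors were lower on average after each of the 3 Obox genes than after the empty vector, and Oboxa4 had the largest number of calls. Calls required an adjusted p (Benjamini-Hochberg, edgeR's quasi-likelihood test) under 0.05 together with a change past the fold threshold, 0.32 on the log2 scale in either direction. By this rule 37 of 54 factors fell after Oboxa4, against a background of 5.83% of the 14012 genes tested, 12 fell after Oboxa7, against 2.34%, and 7 fell after Oboxa1, against 3.28%. After Crxos 1 factor fell, against 8.4%, and 27 of the 54 log2 fold changes were below 0, with a median of 0.00. They ran from -0.39 for Wdr36 to 0.16 for Nop14. No factor was called higher after any of the 4 genes, where the background of genes called higher was 8.38% for Crxos, 4.25% for Oboxa1, 8.06% for Oboxa4 and 3.33% for Oboxa7. At an unadjusted p under 0.05 the edgeR test gave 0 factors higher after any of them and 8 lower after Crxos. The share of all genes at that unadjusted threshold is not given here. DESeq2 also called 0 higher. The changes were moderate: the median log2 fold change of the 54 factors was -0.38 after Oboxa4, -0.26 after Oboxa7 and -0.20 after Oboxa1, where that of all genes tested was 0.00 in each comparison. The 3 comparisons share the control libraries, so their directions are not independent of each other. In bulk RNA, fewer cells that make a transcript and less of it per cell cannot be told apart.

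**Figure D1:**
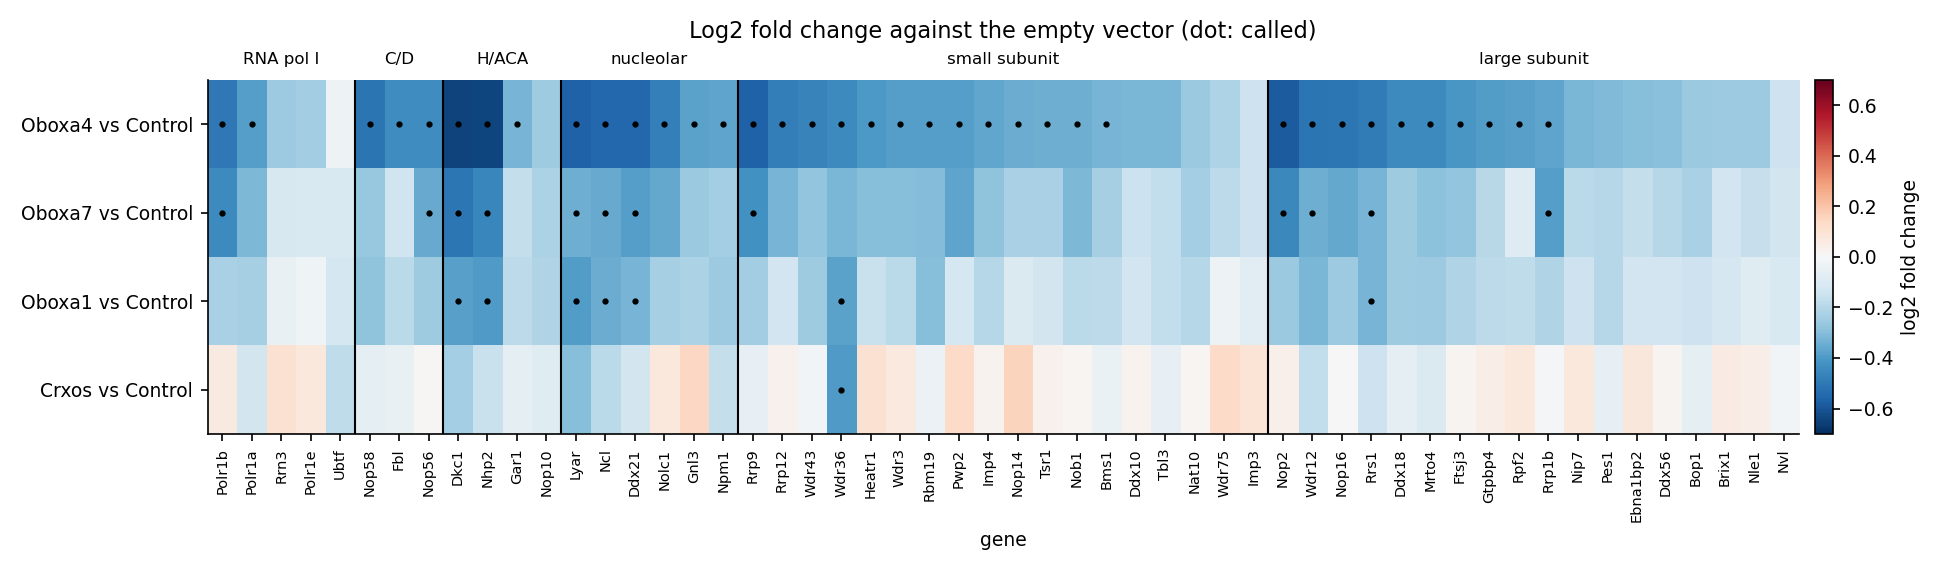
Log2 fold change of each of the 54 factors (columns, ordered by role and then by the change after Oboxa4) against the empty vector after each homeobox gene (rows), with a dot where the gene was called. The Oboxa4 row holds 37 dots, the Oboxa7 row 12, the Oboxa1 row 7 and the Crxos row 1, at Wdr36.

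The libraries have a structure that touches these results. Total counts ran from 28440415 to 42778823, all 54 factors passed the filter on low counts, and the lowest count of any factor in a library was 392. Reads of the transfected gene identified every library. Principal component 1 of the 1000 most variable genes split the libraries into a smaller set of 5 (control replicate 1, Crxos replicates 1 to 3 and Oboxa1 replicate 3) and a larger set of 10, as found in these data; the labels give no date or batch. Genes that mark fibroblasts were abundant, as for Col1a1 at 6535 to 12459 CPM (CPM relates a gene's reads to the library size, here adjusted by TMM), and the sum of 10 such genes was 20646 to 21728 CPM in the controls and 23759 to 34819 CPM after the homeobox genes. Defining markers of macrophages (Ptprc, Emr1), endothelium (Pecam1, Cdh5), epithelium (Epcam, Cdh1) and myoblasts (Myod1, Myf5) stayed under 1 CPM in all 15 libraries, with Emr1 and Myf5 at 0 in 14 of them. Other genes of the same lists were higher, with Des at 5.55 to 20.8, Kdr at 8.08 to 21.6, Krt18 at 1.75 to 13.3 and Cd68 at 3.45 to 8.21 CPM. The sum of 5 myoblast genes, nearly all of it Des, was 5.55 to 6.56 CPM in the controls, 18.7 to 20.9 CPM after Crxos, 10.8 to 19.7 CPM after Oboxa1, 9.39 to 10.7 CPM after Oboxa4 and 7.52 to 9.23 CPM after Oboxa7, above the controls in every case. The sum of 6 epithelial genes was 4.51 to 14.0 CPM in the controls, 2.32 to 2.47 CPM after Crxos, 2.97 to 6.36 CPM after Oboxa1, 5.34 to 6.45 CPM after Oboxa4 and 10.6 to 14.0 CPM after Oboxa7. That of 6 endothelial genes was 13.2 to 24.2 CPM in the controls and 9.77 to 12.8, 9.34 to 15.7, 10.5 to 15.9 and 15.8 to 19.0 CPM after Crxos, Oboxa1, Oboxa4 and Oboxa7. Control replicate 1 was the lowest control for both lists. The 7 macrophage genes summed to 8.62 to 11.5 CPM in the controls, 8.45 to 10.7 CPM after Crxos, Oboxa1 and Oboxa4 and 12.1 to 12.5 CPM after Oboxa7, and 5 genes of neural crest and Schwann cells to at most 4.42 CPM in any library. The part of these shifts in the results below was not tested.

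The summed level of the 54 factors shows the pattern by library. It was 5332, 5187 and 5430.5 CPM in the control libraries, 5287, 4922 and 5049.8 CPM after Crxos, 4189, 4198 and 5134 CPM after Oboxa1, 3988, 3835 and 4159 CPM after Oboxa4 and 4233, 4336 and 4534 CPM after Oboxa7. All Oboxa4 and Oboxa7 libraries lay below every control library, whereas Oboxa1 replicate 3 lay beside the Crxos libraries and just below the controls. Taken over the 54 factors, the median log2 ratio to the control mean was -0.38, -0.46 and -0.32 in the Oboxa4 libraries, -0.31, -0.25 and -0.22 in the Oboxa7 libraries, and -0.31, -0.31 and -0.02 in the Oboxa1 libraries. For 51 of the factors all Oboxa4 libraries lay below all controls, as did 20.5% of all genes tested, and for 46 all Oboxa7 libraries did, against 17.2%. The corresponding counts were 16 for Oboxa1, against 13.3%, and 10 for Crxos, against 21%, with a further 6 factors above all controls after Crxos, against 19.8%. Summed by role, all Crxos libraries lay below all controls for the box H/ACA genes (147 to 158 against 166 to 174 CPM). The same held for the other nucleolar proteins (1695 to 1826 against 1927 to 1990 CPM) and RNA polymerase I (396 to 409 against 411 to 426 CPM). For the box C/D, small subunit and large subunit genes the ranges overlapped.

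**Figure D2:**
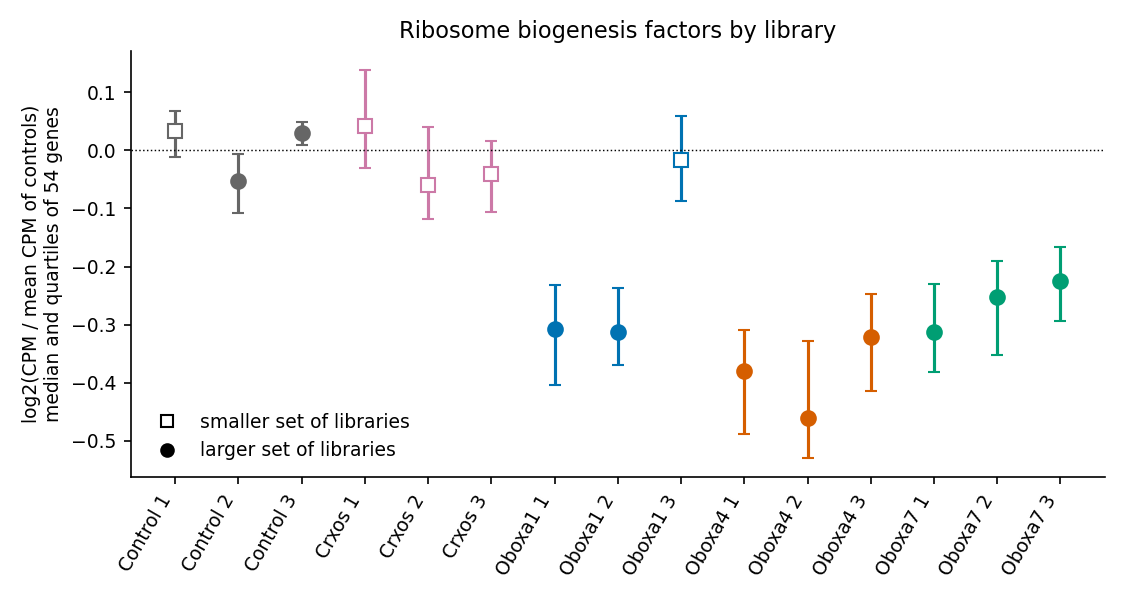
Median (symbol) and quartiles (bars) over the 54 factors of the log2 ratio of CPM to the mean of the controls, for each library, with open squares for the smaller set of 5 libraries and filled circles for the larger set of 10. The Oboxa4 and Oboxa7 libraries and Oboxa1 replicates 1 and 2 lie between -0.46 and -0.22, while Oboxa1 replicate 3 lies at -0.02.

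The promoters of these genes are shown because the factors moved together. RefSeq promoter windows (GRCm38.p6, from 250 bases before to 50 after a transcription start) were at hand for 47 of the 54 genes, 56 windows in all, and 7 motifs were searched on both strands. The E-box CACGTG was in 17.9% of the factors' windows and in 7.96% of the 19507 windows of genes in the count table, and GGAAGT, the core bound by Ets family factors, in 57.1% against 25.0%. CGCGTG, a variant of the E-box, was in 26.8% against 12.5%, and GGGCGG, a GC box, in 60.7% against 47.4%. The core bound by homeodomains of the Crx and Otx class, GGATTA, was in 10.7% against 6.43%, the homeodomain core TAATTA in 1.79% against 4.50%, and TATAAA in 3.57% against 12.3%. The 19507 windows include those of genes that the filter on low counts removed, whereas all 54 factors passed it. A comparison with expressed genes alone was not made, so these differences are not shown to be particular to the factors. The last 120 bases before the start are printed for Lyar, Rrp9, Nhp2, Rbm19, Ncl and Dkc1, which have the smallest p-values after Oboxa4 among the factors with a single window, for Nop2, whose window holds an E-box, and for Nvl, which was among the factors with the smallest change. Capitals mark CACGTG and, on either strand, GGAAGT (or ACTTCC) and GGATTA (or TAATCC); no marked motif overlaps another within these stretches.
Lyar (chr5:38220362-38220481, plus strand): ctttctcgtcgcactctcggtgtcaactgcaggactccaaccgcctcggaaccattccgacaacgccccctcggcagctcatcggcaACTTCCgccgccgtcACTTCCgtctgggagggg
Rrp9 (chr9:106477189-106477308, plus strand): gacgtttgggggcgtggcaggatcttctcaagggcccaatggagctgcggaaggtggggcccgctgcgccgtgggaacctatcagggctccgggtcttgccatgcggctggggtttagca
Nhp2 (chr11:51619653-51619772, plus strand): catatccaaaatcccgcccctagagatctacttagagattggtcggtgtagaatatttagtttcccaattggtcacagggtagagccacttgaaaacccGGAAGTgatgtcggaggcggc
Rbm19 (chr5:120116393-120116512, plus strand): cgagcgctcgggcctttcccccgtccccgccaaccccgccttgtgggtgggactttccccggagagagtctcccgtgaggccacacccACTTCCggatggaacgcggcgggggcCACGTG
Ncl (chr1:86359456-86359575, minus strand): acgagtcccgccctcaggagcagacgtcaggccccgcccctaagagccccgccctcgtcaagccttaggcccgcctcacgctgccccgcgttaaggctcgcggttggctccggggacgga
Dkc1 (chrX:75095734-75095853, plus strand): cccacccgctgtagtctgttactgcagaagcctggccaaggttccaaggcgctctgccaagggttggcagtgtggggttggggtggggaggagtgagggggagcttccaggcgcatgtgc
Nop2 (chr6:125131763-125131882, plus strand): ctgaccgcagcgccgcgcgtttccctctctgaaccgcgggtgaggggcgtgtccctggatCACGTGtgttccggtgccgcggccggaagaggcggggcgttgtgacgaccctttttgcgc
Nvl (chr1:181144205-181144324, minus strand): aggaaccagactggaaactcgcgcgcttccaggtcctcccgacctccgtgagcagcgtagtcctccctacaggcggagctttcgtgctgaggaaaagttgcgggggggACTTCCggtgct
The E-boxes of Rbm19 and Nop2 begin at -6 and -60 from the start. The GGAAGT core occurs in the stretches of Lyar (at -33 and -18), Nhp2 (at -21), Rbm19 (at -32) and also in that of Nvl (at -12), and the stretches of Rrp9, Ncl and Dkc1 hold none of the 3 marked motifs. GGATTA is in none of the 8 stretches; it was found in the windows of Ddx21, Nop10, Nop14, Polr1b, Rrp1b and Tsr1. A match is a run of letters and not an occupied site.

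RNA polymerase I and its cofactors had the smallest share of calls after Oboxa4, with 2 of 5 lower. The gene of the second-largest subunit of the polymerase, Polr1b, was at 46.6, 41.7 and 47.2 CPM in the controls, 34.7, 28.7 and 32.4 CPM after Oboxa4, 30.3, 33.4 and 35.6 CPM after Oboxa7, 34.0, 32.9 and 49.0 CPM after Oboxa1 and 49.7, 46.6 and 45.4 CPM after Crxos. The Oboxa4 and Oboxa7 libraries lay clear of the controls, and Oboxa1 was split, with replicates 1 and 2 low and replicate 3 at the level of Crxos. Polr1b fell by 0.50 on the log2 scale after Oboxa4 (SE 0.128, adjusted p = 0.0139) and by 0.45 after Oboxa7 (SE 0.128, adjusted p = 0.0441). Polr1a, the largest subunit, was at 118, 105 and 114 CPM in the controls, 92.0, 77.0 and 89.6 CPM after Oboxa4, 94.8, 81.3 and 94.5 CPM after Oboxa7, 88.0, 87.8 and 111 CPM after Oboxa1 and 103, 102 and 103 CPM after Crxos. It was called after Oboxa4 alone (log2 fold change -0.38, adjusted p = 0.0119), and its libraries were below all controls after Oboxa4, Oboxa7 and Crxos. Rrn3, the initiation factor that joins the polymerase to the promoter, was at 102, 97.4 and 95.4 CPM in the controls, 83.3, 80.3 and 83.1 CPM after Oboxa4, 88.7, 90.6 and 93.5 CPM after Oboxa7, 89.7, 87.8 and 107 CPM after Oboxa1 and 113, 104 and 99.5 CPM after Crxos. Its log2 fold change after Oboxa4 was -0.26 (adjusted p = 0.0193), which is under the fold threshold. Polr1e, another subunit, had a log2 fold change of -0.24 after Oboxa4 and was not called. Ubtf, the factor that bends and opens the ribosomal DNA, had the smallest change of the 54 after Oboxa4, at -0.04 (adjusted p = 0.72).

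Of the small nucleolar ribonucleoproteins, all 3 box C/D and 3 of 4 box H/ACA genes fell after Oboxa4. Nop58, a core box C/D protein, was at 161, 169 and 171 CPM in the controls, 116, 111 and 124 CPM after Oboxa4, 132, 138 and 147 CPM after Oboxa7, 125, 125 and 162 CPM after Oboxa1 and 171, 152 and 155 CPM after Crxos. It fell by 0.51 on the log2 scale after Oboxa4 (SE 0.0903, adjusted p = 0.00212), and the Oboxa1 libraries were again split between replicates 1 and 2, which were low, and replicate 3. Its partner Nop56 was at 154, 131 and 145 CPM in the controls, 109, 102 and 107 CPM after Oboxa4, 109, 116 and 111 CPM after Oboxa7, 109, 111 and 142 CPM after Oboxa1 and 149, 141 and 141 CPM after Crxos. Nop56 was the box C/D gene called after Oboxa7 as well (log2 fold change -0.35, adjusted p = 0.0259), with -0.43 after Oboxa4 (adjusted p = 0.00452). Fbl had the fewest reads of the 54, at 18.5, 18.3 and 20.1 CPM in the controls, 13.8, 13.5 and 14.8 CPM after Oboxa4, 15.5, 17.7 and 18.4 CPM after Oboxa7, 16.0, 16.3 and 17.5 CPM after Oboxa1 and 19.3, 18.0 and 17.4 CPM after Crxos. All Oboxa4 libraries lay below the controls (log2 fold change -0.43, adjusted p = 0.00238), and the Oboxa7 and Crxos libraries overlapped them.

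The box H/ACA genes Dkc1 and Nhp2 had the largest changes of the 54 after Oboxa4. Dkc1 was at 68.8, 69.2 and 69.3 CPM in the controls, 43.0, 42.4 and 47.0 CPM after Oboxa4, 47.8, 45.6 and 52.7 CPM after Oboxa7, 46.7, 49.6 and 63.0 CPM after Oboxa1 and 64.6, 52.7 and 58.7 CPM after Crxos. The controls agreed closely and all libraries of all 4 genes lay below them, Crxos replicate 1 and Oboxa1 replicate 3 coming closest. The log2 fold change was -0.65 after Oboxa4 (SE 0.102, adjusted p = 0.00115), -0.50 after Oboxa7 (adjusted p = 0.0103) and -0.38 after Oboxa1 (adjusted p = 0.0289). After Crxos it was -0.24 and not called (adjusted p = 0.107). Nhp2, which sits beside dyskerin in the particle, was at 52.5, 48.5 and 50.8 CPM in the controls, 27.5, 34.2 and 35.4 CPM after Oboxa4, 34.3, 38.9 and 37.4 CPM after Oboxa7, 34.8, 36.9 and 43.7 CPM after Oboxa1 and 45.5, 47.4 and 43.1 CPM after Crxos. It too was called after each Obox gene, with log2 fold changes of -0.64 (Oboxa4, adjusted p = 0.000989), -0.46 (Oboxa7, adjusted p = 0.0128) and -0.40 (Oboxa1, adjusted p = 0.0198). Gar1 was at 25.6, 24.1 and 25.4 CPM in the controls, 18.3, 19.9 and 21.7 CPM after Oboxa4, 21.2, 21.7 and 23.8 CPM after Oboxa7, 21.0, 21.1 and 23.9 CPM after Oboxa1 and 24.7, 23.6 and 23.4 CPM after Crxos. Gar1, the remaining protein of the mature particle beside Nop10, was called after Oboxa4 alone (log2 fold change -0.32, adjusted p = 0.00819), and Nop10 itself was not called (-0.25, adjusted p = 0.0839).

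**Figure D3:**
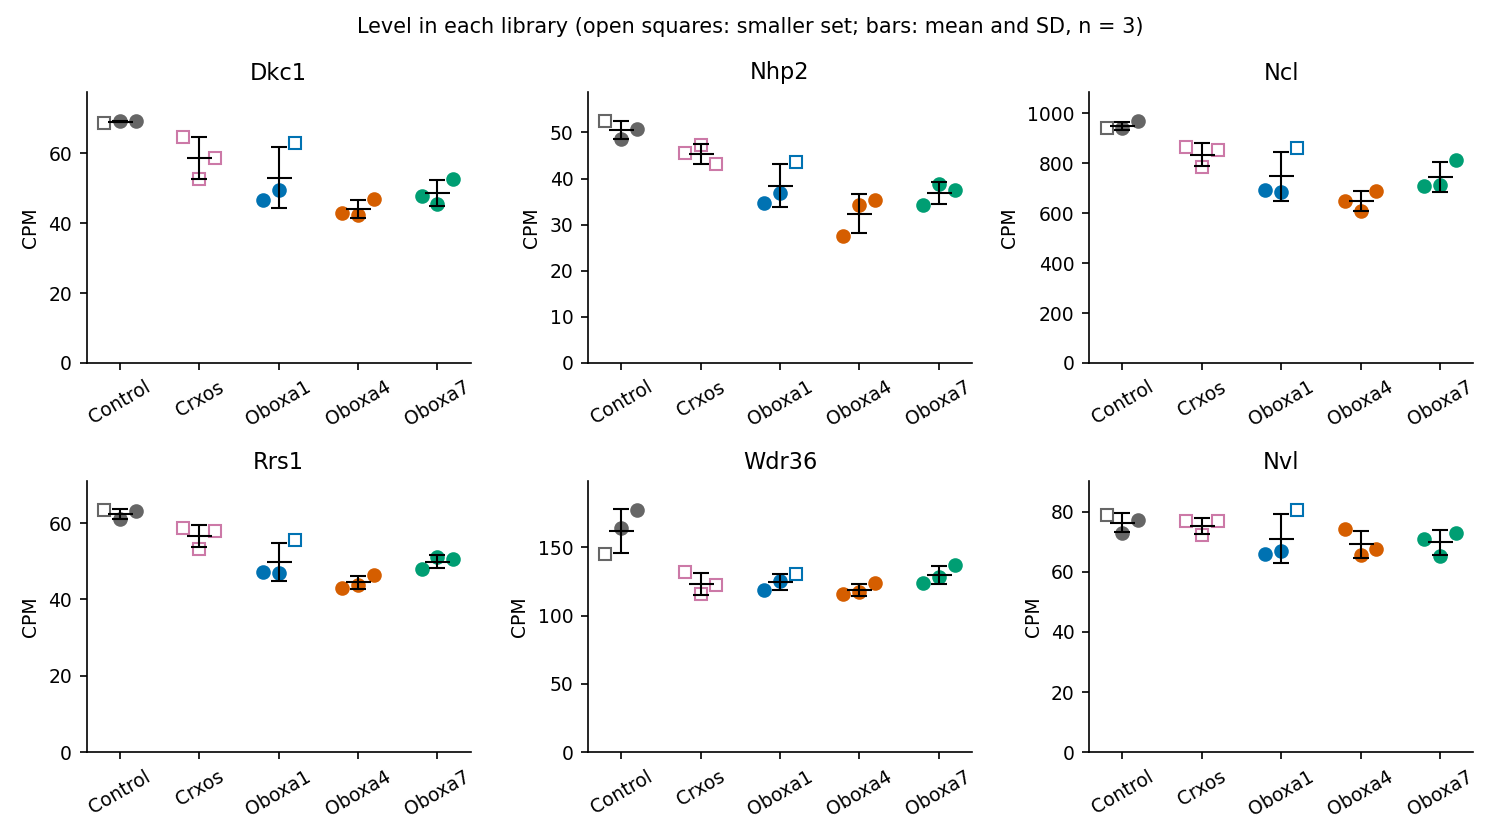
CPM of 6 of the factors in every library (points; open squares for the smaller set of libraries), with the mean and SD of each condition (n = 3). The Oboxa4 libraries lie below all controls for Dkc1, Nhp2, Ncl, Rrs1 and Wdr36, and overlap the controls for Nvl.

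All 6 of the other nucleolar proteins fell after Oboxa4, 3 of them (Ncl, Lyar and Ddx21) also after Oboxa7 and after Oboxa1. Nucleolin, encoded by Ncl, binds the precursor RNA and had the most reads of the 54, at 941, 939 and 969 CPM in the controls, 649.9, 607 and 688 CPM after Oboxa4, 708, 713 and 812 CPM after Oboxa7, 694, 685 and 861 CPM after Oboxa1 and 867, 784 and 853 CPM after Crxos. Every library of every homeobox gene lay below the controls. The log2 fold change was -0.55 after Oboxa4 (SE 0.0868, adjusted p = 0.00115), -0.35 after Oboxa7 (adjusted p = 0.0248), -0.35 after Oboxa1 (adjusted p = 0.0212) and -0.19 after Crxos (adjusted p = 0.132, not called). Lyar, a nucleolar zinc finger protein of growing cells, was at 48.3, 48.1 and 48.6 CPM in the controls, 29.8, 31.4 and 36.8 CPM after Oboxa4, 34.6, 38.1 and 41.4 CPM after Oboxa7, 35.5, 36.6 and 38.6 CPM after Oboxa1 and 39.7, 38.1 and 39.9 CPM after Crxos. Here Oboxa1 replicate 3 was nearly as low as the other Oboxa1 libraries. Its adjusted p was 0.0147 after Crxos, where the log2 fold change of -0.30 fell short of the fold threshold, and 0.000647 after Oboxa4, where the change was -0.56. Npm1, the chaperone nucleophosmin, was at 396, 413 and 424 CPM in the controls, 305, 321 and 331 CPM after Oboxa4, 329, 358 and 359 CPM after Oboxa7, 337, 339 and 356 CPM after Oboxa1 and 372, 347 and 378 CPM after Crxos. All libraries of the 4 homeobox genes lay below the controls, and the fold threshold was passed after Oboxa4 alone (-0.37, adjusted p = 0.000854). Per kilobase, Npm1 was the most abundant of the 54 in the controls, at 239 ± 8.03 RPKM (SD, n = 3), ahead of Ncl at 109 ± 1.91 RPKM, with Polr1e the lowest at 5.77 ± 0.236 RPKM. Npm1 has processed pseudogenes in the mouse genome, and no source used here states how reads that match several places were counted. The helicase Ddx21 (log2 fold change -0.55 after Oboxa4), Nolc1 (-0.48), which accompanies small nucleolar particles, and the GTP-binding protein Gnl3 or nucleostemin (-0.38) complete the group.

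Among the small subunit factors 13 of 18 fell after Oboxa4, 1 after Oboxa7, 1 after Oboxa1 and 1 after Crxos. Rrp9, a protein of the U3 particle that guides the first cuts, was at 55.2, 49.1 and 56.8 CPM in the controls, 35.5, 34.7 and 38.7 CPM after Oboxa4, 37.3, 41.9 and 40.8 CPM after Oboxa7, 43.3, 41.3 and 51.4 CPM after Oboxa1 and 53.5, 51.2 and 49.8 CPM after Crxos. It was the small subunit factor called after Oboxa7 (-0.42, adjusted p = 0.00933) and was also called after Oboxa4 (-0.57, adjusted p = 0.000892), while the Crxos libraries lay among the controls. Rbm19, an RNA-binding protein of the processome, was at 55.9, 52.0 and 53.1 CPM in the controls, 41.0, 39.4 and 42.9 CPM after Oboxa4, 43.3, 42.5 and 44.4 CPM after Oboxa7, 42.6, 42.3 and 46.0 CPM after Oboxa1 and 56.0, 51.5 and 48.8 CPM after Crxos. All Obox libraries lay below the controls, and the change passed the fold threshold after Oboxa4 (-0.39, adjusted p = 0.00106) and missed it narrowly after Oboxa7 (-0.31) and Oboxa1 (-0.30). Wdr36, a WD-repeat protein of the processome, was the factor called after Crxos. Its values were 145, 164 and 177 CPM in the controls, 132, 116 and 122 CPM after Crxos, 118, 125 and 130.3 CPM after Oboxa1, 116, 117 and 124 CPM after Oboxa4 and 124, 128 and 137 CPM after Oboxa7. Control replicate 1, the one control in the smaller set, was the lowest of the controls, and all libraries of all 4 genes lay below it. Against all 3 controls the log2 fold change was -0.39 after Crxos (adjusted p = 0.00245), and within the smaller set it was -0.23 and not called (adjusted p = 0.0478). The rest of the group ranged after Oboxa4 from -0.48 for Rrp12, an export factor, to -0.14 for Imp3, a U3-associated protein.

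Of the 18 large subunit factors 10 fell after Oboxa4, 4 after Oboxa7 (Nop2, Wdr12, Rrs1 and Rrp1b) and 1 after Oboxa1. Rrs1, which in yeast brings the 5S ribonucleoprotein into the precursor, was at 63.3, 60.9 and 63.0 CPM in the controls, 43.1, 43.8 and 46.5 CPM after Oboxa4, 47.9, 51.1 and 50.5 CPM after Oboxa7, 47.1, 46.8 and 55.4 CPM after Oboxa1 and 58.6, 53.3 and 57.8 CPM after Crxos. Rrs1 had the smallest adjusted p of the 54 (0.000602 after Oboxa4, log2 fold change -0.49, SE 0.0661) and was the large subunit factor called after Oboxa1 (-0.33, adjusted p = 0.00772). Wdr12, which works with Pes1 and Bop1 in a complex, was at 45.9, 40.1 and 45.3 CPM in the controls, 28.6, 30.9 and 32.5 CPM after Oboxa4, 34.7, 34.1 and 34.9 CPM after Oboxa7, 31.9, 34.9 and 38.7 CPM after Oboxa1 and 41.8, 36.3 and 38.4 CPM after Crxos. The members of that complex did not pass alike after Oboxa4, since Wdr12 was called (-0.51, adjusted p = 0.00112), whereas Pes1 (-0.31) and Bop1 (-0.26) had adjusted p-values of 0.00289 and 0.00638 and did not pass the fold threshold. Mrto4, an assembly factor related to the stalk protein P0, was at 43.6, 38.1 and 42.2 CPM in the controls, 28.3, 29.8 and 33.1 CPM after Oboxa4, 33.2, 34.3 and 33.9 CPM after Oboxa7, 34.3, 32.2 and 37.6 CPM after Oboxa1 and 39.7, 37.6 and 38.4 CPM after Crxos. It was called after Oboxa4 (-0.44, adjusted p = 0.00144). The largest change of the group was that of Nop2, a methyltransferase of the 28S RNA, at -0.58 after Oboxa4 and -0.45 after Oboxa7, and the smallest after Oboxa4 was that of Nvl, an AAA ATPase that releases assembly factors, at -0.14. After Oboxa7 the smallest was that of Rpf2, which in yeast works with Rrs1, at -0.09. After Oboxa4, 10 of the 54 factors had an adjusted p under 0.05 and a change short of the fold threshold, as did 10 after Oboxa7.

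Calls after Oboxa4 did not hang on a single library: leaving out each library in turn left 27 to 39 factors lower. For Oboxa7 the count was 0 without Oboxa7 replicate 1, 5 without replicate 2 of that gene, 3 with control replicate 3 left out and 8 with control replicate 1 left out, and from 10 to 15 with any other library left out. Over all genes, 328 of 14012 were lower after Oboxa7 with all libraries. The number was 149 of 14153 without control replicate 3 and 372 of 14151 without control replicate 1. The numbers over all genes without an Oboxa7 library are not given here. Because all Oboxa4 and Oboxa7 libraries lie in the larger set, a fit comparing conditions within a set rests there on control replicates 2 and 3, and it called 34 factors lower after Oboxa4 (background 7.71%) and 12 lower after Oboxa7 (background 4.3%). With a term for the set in a fit of all libraries 26 were lower after Oboxa4 (background 6.29%) and 8 after Oboxa7 (background 3.39%).

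The Oboxa1 libraries fall in both sets, and their values are given for each. In the larger set, where Oboxa1 replicates 1 and 2 were compared with control replicates 2 and 3, 21 of 54 factors were lower, against a background of 7.05%, and all 54 log2 fold changes were below 0, with a median of -0.31. In the smaller set Oboxa1 replicate 3 against control replicate 1 gave 22 log2 fold changes above 0, where 49.6% of all genes were, and a median of -0.08. This comparison has 1 library on each side and the split was found in these data, so it is a description of those 2 libraries with no test, and a difference of the effect between the sets is not shown. The largest gap between the sets was that of Ddx21, at 196, 202 and 272 CPM in the Oboxa1 libraries and 266, 285 and 288 CPM in the controls. Its log2 fold change was -0.52 in the larger set and 0.03 in the smaller set. Gnl3 was at 88.3, 92.3 and 123 CPM in the Oboxa1 libraries and 115, 118 and 122 CPM in the controls, and for both genes replicate 3 was the one Oboxa1 library as high as the controls. Leaving out Oboxa1 replicate 3 from the 15-library test raised the count of lower factors from 7 to 25, and leaving out replicate 1 or replicate 2 lowered it to 2, as leaving out control replicate 3 lowered it to 1. Over all genes, 460 of 14012 were lower with all libraries and 211 of 14153 without control replicate 3. The numbers over all genes without an Oboxa1 library are not given here, so these shifts are not shown to be particular to the factors. A fit of the 10 libraries of the larger set gave 20 (background 6.83%). Of the Oboxa1 libraries, replicate 3 also had the fewest reads of the transfected gene, 64.1 CPM against 163 and 137 CPM in replicates 1 and 2. Oboxa7 replicate 1 (63.2 CPM) and Oboxa4 replicate 2 (65.9 CPM) had similar levels of their own transfected genes. Their median log2 ratios over the 54 factors were -0.31 and -0.46. The part of the transfected gene's level in the Oboxa1 values was not tested, and with 1 Oboxa1 library in the smaller set it cannot be told apart from that of the set.

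**Figure D4:**
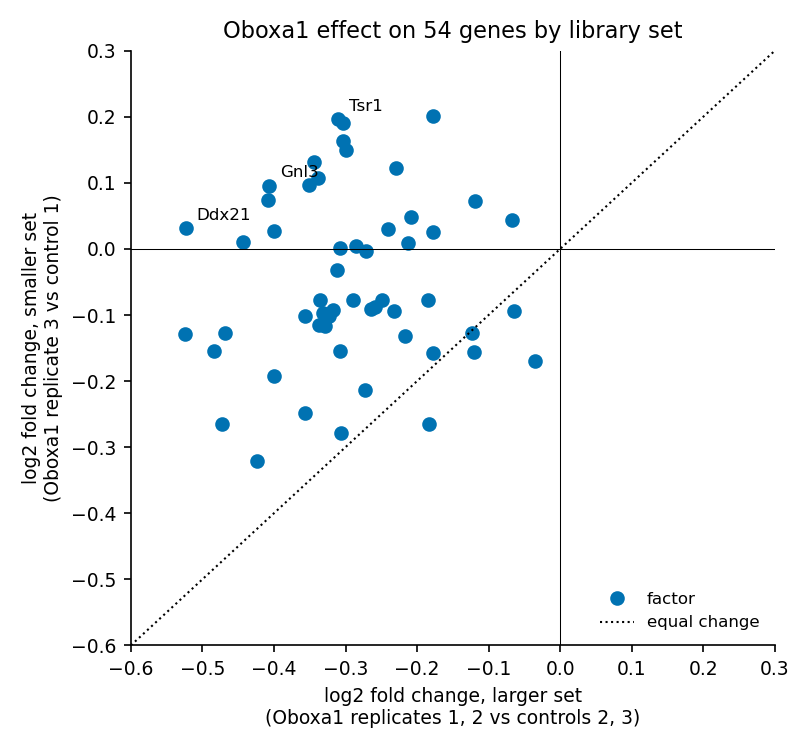
Log2 fold change of the 54 factors after Oboxa1 in the larger set of libraries (horizontal axis) and in the smaller set (vertical axis), 1 point for each factor, with the names of the 3 that have the widest gap between the sets. The points lie to the left of 0 and mostly above the dotted line of equal change, with medians of -0.31 and -0.08.

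Crxos is confounded with the same split, because all its libraries lie in the smaller set with 1 control, whose scatter is taken to be that of the other groups. Within that set 0 factors were called after Crxos in either direction, against 6.39% of all genes higher and 5.7% lower, the median log2 fold change was -0.06, and at an unadjusted p under 0.05 edgeR's test gave 6 lower and 1 higher. With a term for the set in the model 3 factors were lower, against 5.18%. Against Oboxa1 replicate 3, the other library of the set with a homeobox gene, the Crxos libraries had a median log2 fold change of 0.01, with no test because it is a single library. Compared with the mean of the 3 Obox genes over all libraries, Crxos had 13 factors higher and 0 lower, against a background of 7.84% higher and 9.66% lower, with a median of 0.27. They were Nop2 (0.47, adjusted p = 0.00668), Polr1b, Nolc1, Gnl3, Pwp2, Heatr1, Nop14, Nop16, Wdr3, Nop56, Rrp9, Rrp12 and Nhp2 (0.34, adjusted p = 0.00958). The within-set fit called 11 (background 2.81%). No set holds Crxos together with Oboxa4 or Oboxa7, so that fit compares changes from the controls of each set. Its 11 calls therefore also carry the difference of control replicate 1 from control replicates 2 and 3. They are not a direct comparison of Crxos with the Obox genes. With a term for the set 0 were called, where 0% of all genes were called higher. The Crxos difference from Oboxa4 and Oboxa7 runs along the split, so that gene and set cannot be told apart.

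The Obox genes were also compared with each other. The 54 factors had a median log2 fold change of -0.13 in Oboxa4 against Oboxa7, with 51 below 0, and of -0.19 in Oboxa4 against Oboxa1, with 53 below 0. No factor was called in these comparisons or in Oboxa1 against Oboxa7 (median 0.06), either by edgeR or by DESeq2. The edgeR background was 0.136%, 0.0143% and 0.0999% of genes called lower and 0.05%, 0.0143% and 0.0214% called higher. Of 22063 rows, DESeq2 called 66, 2 and 48 lower and 43, 4 and 42 higher. At an unadjusted p under 0.05 the edgeR test gave 11, 28 and 0 factors lower and 0 higher, and DESeq2 gave 11, 31 and 0 lower and 0, 0 and 2 higher. The share of all genes at that unadjusted threshold is not given here, so these counts have no background beside them. The largest difference was that of Rrp12 between Oboxa4 and Oboxa1, at -0.35, with an interval of 2 SE either side from -0.59 to -0.11, and between Oboxa4 and Oboxa7 it was Fbl, at -0.29, from -0.45 to -0.14. The larger number of calls after Oboxa4 than after Oboxa1 or Oboxa7 is thus not shown gene by gene to be a larger effect. Within the larger set the median difference of Oboxa4 from Oboxa1 was -0.07.

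Other genes of the same process were also called lower after Oboxa4, and the share of all genes tested that fell is again 5.83% for Oboxa4, 2.34% for Oboxa7, 3.28% for Oboxa1 and 8.4% for Crxos. Of 98 other factors of precursor RNA processing and ribosome assembly, 31 fell after Oboxa4 (median log2 fold change -0.27), 8 after Oboxa7 (-0.16), 2 after Oboxa1 (-0.13) and 0 after Crxos (-0.01), and 0 rose after any of the 4. At the head of those after Oboxa4 were Mybbp1a (-0.52), a nucleolar Myb-binding protein, Las1l (-0.52), which cuts the second internal spacer, and Eif6 (-0.41), which keeps the large subunit from joining the small one too early. Of 15 other genes of RNA polymerase I, 3 fell after Oboxa4 (Taf1d, Twistnb and Polr1d), 0 after Oboxa7, 1 after Oboxa1 and 0 after Crxos. Of the proteins of the ribosome itself, 81 cytoplasmic genes were tested: 8 fell after Oboxa4 (median -0.16), 2 after Oboxa7 (-0.12) and 2 after Oboxa1 (-0.08), and after Crxos 2 rose, against 8.38% of all genes, and 0 fell (0.01). The counts of the 98 factors and of the ribosomal proteins after Oboxa1, and of the latter after Oboxa7, are near or under these shares. The summed level of the ribosomal proteins was 13112, 12553 and 12886 CPM in the controls and 10563, 12385 and 12207 CPM after Oboxa4, where replicate 1 stands below the other libraries. Many ribosomal protein genes have processed pseudogenes that may share their reads.

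Myc, the activator of many of these genes, was at 133, 170 and 193 CPM in the controls, 86.1, 86.5 and 96.7 CPM after Oboxa4, 125, 147 and 125 CPM after Oboxa7, 86.2, 89.7 and 155 CPM after Oboxa1 and 148, 163 and 165 CPM after Crxos. The Oboxa4 libraries and Oboxa1 replicates 1 and 2 lay below all controls, while Oboxa1 replicate 3 and the Crxos libraries lay within their range. Myc fell by 0.88 on the log2 scale after Oboxa4 (adjusted p = 0.00568), and its log2 fold changes of -0.58 after Oboxa1 (adjusted p = 0.0573), -0.32 after Oboxa7 (adjusted p = 0.296) and -0.06 after Crxos were not called. The paper, which used DESeq2 on experiments matched by date, lists Myc as down after Oboxa4 and Oboxa7. It lists no change of Myc after Oboxa1 or Crxos. Within sets of libraries, where control replicate 1, the lowest of the controls, no longer enters the comparison with Oboxa7, Myc was called lower after Oboxa1 (-0.62, adjusted p = 4.23e-06) and Oboxa7 (-0.46, adjusted p = 0.000398). With a term for the set it was called after Oboxa1 (adjusted p = 0.0106) and not after Oboxa7 (adjusted p = 0.299). Of the other 10 genes of the Myc network, the antagonists Mxd1 (0.37, adjusted p = 0.0427) and Mxd4 (0.43, adjusted p = 0.0465) rose after Oboxa4 and none was called after the other homeobox genes. Within sets of libraries Mxd1 (0.27) and Mxd4 (0.31) were under the fold threshold and no longer called. Whether the level of Myc plays a part in that of the 54 factors was not tested.

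Genes of S phase and mitosis were called lower after all 4 homeobox genes. Of 15 such genes, 10 fell after Crxos (median log2 fold change -0.48), 8 after Oboxa1 (-0.34), 8 after Oboxa4 (-0.33) and 5 after Oboxa7 (-0.31), against 8.4%, 3.28%, 5.83% and 2.34% of all genes. Their summed level was 2225, 2249 and 2278 CPM in the controls, 1588, 1559 and 1729 CPM after Crxos, 1683, 1827 and 1727 CPM after Oboxa1, 1769, 1779 and 1902 CPM after Oboxa4 and 1828, 1769 and 2005 CPM after Oboxa7. All 12 libraries lay below the controls, the conditions overlapped in part (Crxos replicate 3 lay above Oboxa1 replicates 1 and 3), and differences between the conditions were not tested for this list. Oboxa1 replicate 3 lay between the other Oboxa1 libraries.

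**Figure D5:**
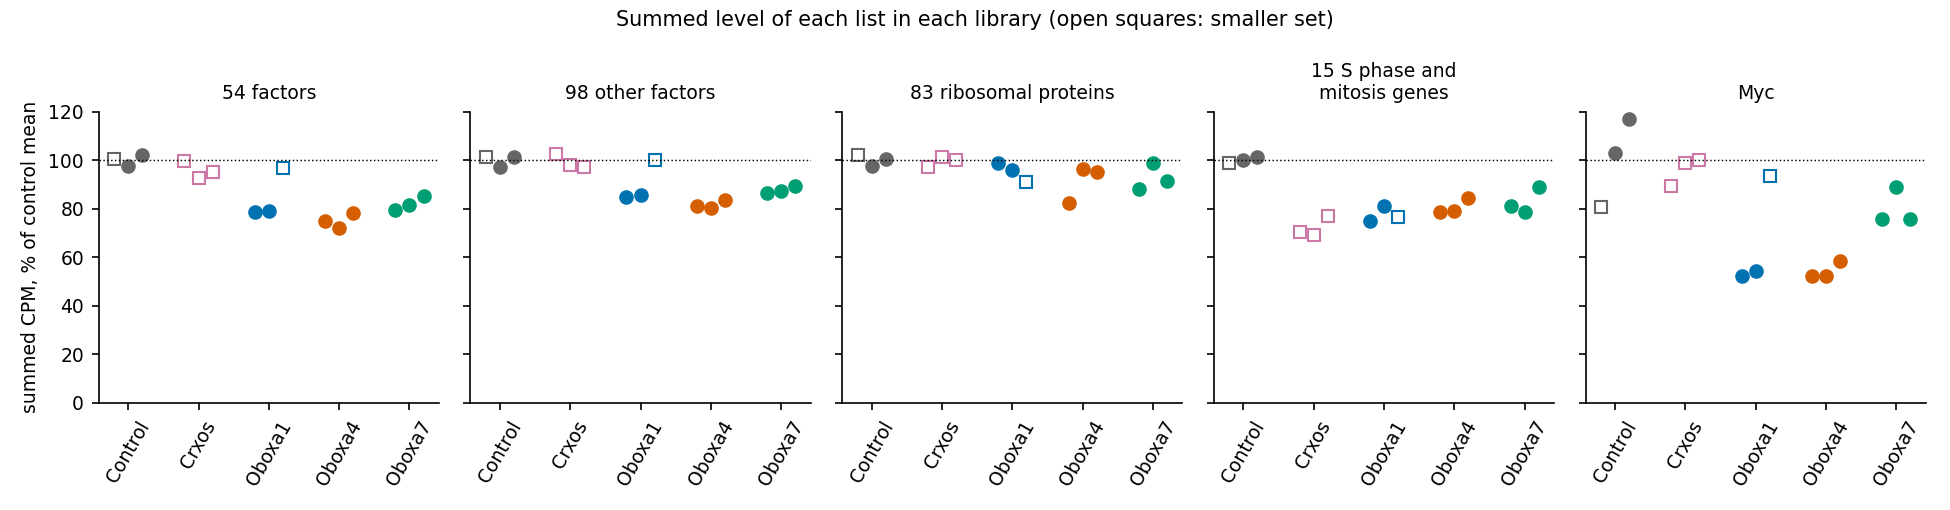
Summed CPM of the 54 factors, 98 other factors, 83 ribosomal proteins, 15 genes of S phase and mitosis, and Myc, as a percentage of the mean of the controls, for each library (open squares for the smaller set). The 54 factors are at 72.1 to 78.2% in the Oboxa4 libraries and at 96.6% in Oboxa1 replicate 3, while the genes of S phase and mitosis are at 69.2 to 89.1% in all 12 libraries with a homeobox gene.

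The genes lie on 19 chromosomes, so that no single locus holds them. Dkc1 is on chromosome X, at 75095854 to 75109776 (GRCm38.p6), and Nhp2 on chromosome 11, at 51619773 to 51623718. By RefSeq, 13 of the 54 overlap another protein-coding gene, among them Dkc1 (with Mpp1), Nhp2 (with Rmnd5b), Lyar (with Zbtb49), Nop56 (with Idh3b) and Wdr12 (with Carf). Whether strand was used in the counting is not given, and reads from the shared stretches cannot be told apart.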

How the data were processed

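Paired-end TruSeq reads were aligned by the authors to GRCm38/mm10 with STAR. The deposited table holds raw counts, produced by the authors with featureCounts (also listed in the submitters' processing notes) over NCBI protein-coding genes; no source used here states tool versions or the handling of strand and of multiply matching reads. Sample labels gave conditions and replicate numbers. The members and lists were chosen with earlier results of these data known. Counts were TMM-scaled, filterByExpr kept 14012 of 22063 rows, and edgeR 4.0.16 (R 4.3.3, limma 3.58.1) was fitted to all 15 libraries without a block, adjusting p over all genes. Code was checked on simulated counts. DESeq2 1.42.0, the authors' tool, was an alternative, as were other scalings, filters and fold thresholds, a replicate block and leaving out each library. The within-set fits rest on a split found in these data, and a lone library of a group in a set is assumed to vary like the others. Values by library are given, per role group, for the 3 members with the smallest p in any comparison with the control, for the members with the fewest and the most reads, and for Ddx21, Gnl3 and Myc, chosen after their values were seen. RPKM divides CPM by the deposited gene length in kilobases.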

Additional observations from a re-analysis of the deposited data

How the results depend on the processing

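No factor changed direction while called under any alternative, and no count of higher factors against the control rose above 0. Against the control, leaving out each library in turn gave 1 lower factor after Crxos in every case, 1 to 25 after Oboxa1, 27 to 39 after Oboxa4 and 0 to 15 after Oboxa7, and the count of factors higher in Crxos than in the mean of the Obox genes ran from 9 to 22. The number of all genes called moved as well, as from 460 to 211 lower after Oboxa1 without control replicate 3. A test against the fold threshold itself (glmTreat) left 3 factors after Oboxa4 and 0 after Crxos, Oboxa1 and Oboxa7, and 0 higher in Crxos than in the Obox genes, so the size of most changes is not shown to exceed it. Of the 14012 genes tested, glmTreat left 110 lower after Oboxa4, 331 after Crxos, 51 after Oboxa1 and 14 after Oboxa7. It left 119 genes higher in Crxos than in the mean of the Obox genes. Without a threshold on the fold change 3 factors were lower after Crxos, 12 after Oboxa1, 47 after Oboxa4 and 22 after Oboxa7. Of the 14012 genes tested, 1821, 855, 1721 and 703 were then lower. For Crxos against the Obox genes 45 factors were higher, where 2062 of all genes were. A fit of only the groups compared gave 0 after Oboxa1, where only 18 of all 13571 genes tested were lower. A fit of the larger set, chosen after seeing the data, gave 20, where 956 of 13997 genes were lower. That term left 3 factors lower after Crxos and 0 higher in Crxos than in the Obox genes. The cause of these shifts was not tested. Samples with the same replicate number did not deviate together (correlations with the control of that number from -0.49 to 0.44), and although the study matched experiments by date no source ties a number to a date, so the numbers were not taken as pairs; with a replicate block 1, 7, 37 and 12 factors were lower after Crxos, Oboxa1, Oboxa4 and Oboxa7, as without it, and 13 higher in Crxos than in the Obox genes.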
